A study of Mus musculus with 2 samples.

Results

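Head-to-head bidirectional promoters are short stretches of DNA from which a pair of neighbouring genes is read in opposite directions, away from each other. They were taken here as all pairs of protein-coding genes on opposite strands of chromosomes 1 to 19 whose outermost transcription start sites (TSSs, GENCODE M21 basic annotation, mm10) faced away from each other and lay 1 to 1000 bp apart. This gave 765 pairs with 1508 genes, or 7.25% of the 20807 protein-coding genes on these chromosomes. The region of a pair is the interval between both TSSs plus 500 bp on each side. In 22 genes the annotation gave 2 partners, mostly through readthrough, provisional or duplicated gene models, so that the 765 regions merged into 743 stretches of 907 kb in all. Pairs are written with the gene on the minus strand first.

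The thymus of 2 female mice of the B6CASTF1/J strain, 14 days old, was profiled by DNase-seq, an assay that sequences the ends left where the enzyme DNase I cuts accessible DNA. B6CASTF1/J is the first-generation cross of the C57BL/6J and CAST/EiJ strains. Both mice belong to 1 group without treatment or control, carry different animal numbers and a common donor identifier in the labels, and are called replicates 1 and 2. With 2 animals in 1 group no test between conditions exists (the smallest two-sided sign-flip p would be 0.5), so values are given per replicate and set against the spread between both. The labelled tissue matched its markers: all 8 thymocyte genes checked (Cd3e, Cd4, Cd8a, Rag1, Ptcra, Lck, Bcl11b and Tcf7) had a peak at the TSS in both replicates, as had 0 of 4 hepatocyte, 0 of 4 striated muscle, 1 of 4 erythroid and 2 of 4 myeloid genes.

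When 2 genes share a promoter region in this way, 1 set of transcription factors bound between the TSSs can serve both, and RNA polymerase is loaded in both directions. Such promoters are known to be rich in CpG dinucleotides, to lack TATA boxes as a rule, and to be frequent among genes that most cells need, such as those for DNA repair and mitochondrial function. An open promoter appears in DNase-seq as a peak of cuts, and a protein bound inside it as a footprint, a short dip in the cutting.

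The intervals of 8 pairs are shown because their regions range from some of the strongest peaks of all pairs to no peak. Each runs 5′ to 3′ on the plus strand of mm10 from the TSS of the first gene to that of the second, so the first gene is read leftwards and the second rightwards. The letters are those of the C57BL/6J reference, and the CAST alleles of these mice were not read. Capitals mark exact matches to 11 short motifs or TATAAA that overlapped a footprint in both replicates, or, in the pairs without a peak, all matches. The first 3 are the strongest pairs with TSSs 60 to 300 bp apart: Rita1/Ddx54 at chr5:120612589-120612739, Kcnab2/Nphp4 at chr4:152477871-152478142 and Dtl/Ints7 at chr1:191575544-191575636. In both replicates the strongest peak of Rita1/Ddx54 and that of Kcnab2/Nphp4 lay in the flank, outside the interval printed, and that of Dtl/Ints7 covered its interval. Rita1 encodes a partner of the Notch factor RBPJ, Ddx54 an RNA helicase, Kcnab2 a potassium channel subunit, Nphp4 a protein of the cilium, Dtl an adaptor of a ubiquitin ligase active in DNA replication and Ints7 a subunit of the Integrator complex.
Rita1/Ddx54: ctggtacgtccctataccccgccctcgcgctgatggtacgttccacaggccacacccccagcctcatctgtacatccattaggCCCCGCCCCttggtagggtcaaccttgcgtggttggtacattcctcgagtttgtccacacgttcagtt
Kcnab2/Nphp4: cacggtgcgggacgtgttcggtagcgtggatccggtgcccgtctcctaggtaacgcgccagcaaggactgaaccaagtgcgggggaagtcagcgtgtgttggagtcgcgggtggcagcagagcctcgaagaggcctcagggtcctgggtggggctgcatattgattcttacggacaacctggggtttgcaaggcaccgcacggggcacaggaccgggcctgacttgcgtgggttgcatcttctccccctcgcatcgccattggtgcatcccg
Dtl/Ints7: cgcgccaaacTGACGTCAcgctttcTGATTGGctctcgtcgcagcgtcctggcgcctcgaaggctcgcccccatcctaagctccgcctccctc

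The next 3 held most motif matches that overlapped footprints: Polh/Xpo5 at chr17:46202645-46202782, Zcchc17/Snrnp40 at chr4:130359943-130360132 and Klc4/Mrpl2 at chr17:46646022-46646229. Polh encodes the DNA polymerase that copies past ultraviolet damage, Xpo5 the exporter of microRNA precursors, Snrnp40 a protein of the U5 splicing particle and Mrpl2 a protein of the mitochondrial ribosome.
Polh/Xpo5: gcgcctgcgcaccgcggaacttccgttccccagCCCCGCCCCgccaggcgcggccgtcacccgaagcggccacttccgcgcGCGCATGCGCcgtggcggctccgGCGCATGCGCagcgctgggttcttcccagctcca
Zcchc17/Snrnp40: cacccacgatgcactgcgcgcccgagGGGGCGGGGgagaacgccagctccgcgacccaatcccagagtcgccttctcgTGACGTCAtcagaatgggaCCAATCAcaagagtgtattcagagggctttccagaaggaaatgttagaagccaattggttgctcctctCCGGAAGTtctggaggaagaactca
Klc4/Mrpl2: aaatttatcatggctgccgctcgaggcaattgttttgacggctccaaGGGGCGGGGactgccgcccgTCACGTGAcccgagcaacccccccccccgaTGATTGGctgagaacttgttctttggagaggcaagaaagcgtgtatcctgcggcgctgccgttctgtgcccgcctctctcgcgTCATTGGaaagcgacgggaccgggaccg

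The last 2 had no peak in either replicate: Ngef/Neu2 at chr1:87573870-87574027 and Patl2/Terb2 at chr2:122186189-122186272. Ngef encodes a guanine nucleotide exchange factor of neurons, Neu2 a sialidase, Patl2 an RNA-binding protein of oocytes and Terb2 a telomere protein of meiosis.
Ngef/Neu2: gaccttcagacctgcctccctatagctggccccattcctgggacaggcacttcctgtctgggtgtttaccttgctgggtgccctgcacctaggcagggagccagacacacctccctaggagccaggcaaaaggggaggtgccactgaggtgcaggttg
Patl2/Terb2: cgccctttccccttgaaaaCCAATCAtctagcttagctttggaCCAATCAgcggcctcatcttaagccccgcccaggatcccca
The Ngef/Neu2 interval held 0 CpG dinucleotides in 158 bases and the Patl2/Terb2 interval 3 in 84, against 11 in 93 bases for Dtl/Ints7 and 23 in 138 for Polh/Xpo5. Patl2/Terb2 carried 2 copies of CCAATCA. This string, or TGATTGG as it reads on the other strand, overlapped only the edge of a footprint in Zcchc17/Snrnp40 and Dtl/Ints7. In Klc4/Mrpl2 it lay wholly inside a footprint in both replicates. The string thus occurred in pairs with and without a peak.

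Nearly all head-to-head pairs were open. A peak overlapped the region (by at least 1 bp) in 734 of the 765 pairs in replicate 1 (95.9%, 95% Wilson interval 94.3 to 97.1) and in 732 in replicate 2 (95.7%, interval 94.0 to 96.9), and 730 pairs had a peak in both (95.4%). Of the other pairs, 4 had a peak in replicate 1 only, 2 in replicate 2 only and 29 in neither. The shares of both animals differed by less than their counting intervals.

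For a comparison with genes outside such pairs, every gene was given the same window, 500 bp to each side of its outermost TSS. Coding partners were counted by the rule above only. The other genes thus include genes with a coding neighbour head to head whose 5′ end overlaps theirs or whose TSS lies over 1000 bp away. Among all protein-coding genes 58.8% had a peak there in replicate 1, 59.7% in replicate 2 and 56.9% in both. Of the 1508 genes of head-to-head pairs, 1435 (95.2%) were open in replicate 1, 1433 (95.03%) in replicate 2 and 1425 (94.5%) in both. Of the 19299 other genes, 55.9% were open in replicate 1 and 56.9% in replicate 2. The difference was 39.2 percentage points in one animal and 38.1 in the other (mean 38.7, SD 0.805, n = 2), far more than the spread between the animals. Genes of a pair share most of their window, so they are not independent. Of the 728 other genes with a long noncoding RNA gene head to head with them, 81.7% were open in replicate 1 and 82.6% in replicate 2.

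A large share of this difference went with CpG content. The ratio of observed to expected CpG around the TSS had a median of 0.776 in genes of head-to-head pairs and 0.551 in the other genes. Among the latter it was 0.764 with a head-to-head long noncoding RNA gene and 0.535 with neither kind of partner. At a ratio of 0.4 to 0.6, 77.9% and 73.5% of genes with a noncoding partner were open, against 63.7% and 65.3% with neither. At 0.8 to 1 the order was the reverse, with 92.9% and 95.8% against 94.4% and 96.3%. Genes with a noncoding partner were also open less often under 0.2, and more often in the remaining classes, in both replicates. Within single classes of the ratio, pair genes were open more often in each class and each replicate, and from the class at 0.4 to 0.6 upwards the gap shrank as CpG rose. At a ratio of 0.4 to 0.6, 91.6% and 88.1% of 143 pair genes were open in replicates 1 and 2, against 64.1% and 65.5% of 2680 other genes. At 0.8 to 1 the shares were 99.1% and 99.3% against 94.3% and 96.3%. At a ratio under 0.2, 7 of only 24 pair genes were open in each replicate (29.2%, interval 14.9 to 49.2), against 6.37% and 6.07% of 4566 other genes. When the other genes were weighted to the CpG classes of the pair genes, the difference fell to 10.3 percentage points in replicate 1 and 8.41 in replicate 2.

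**Figure D1:**
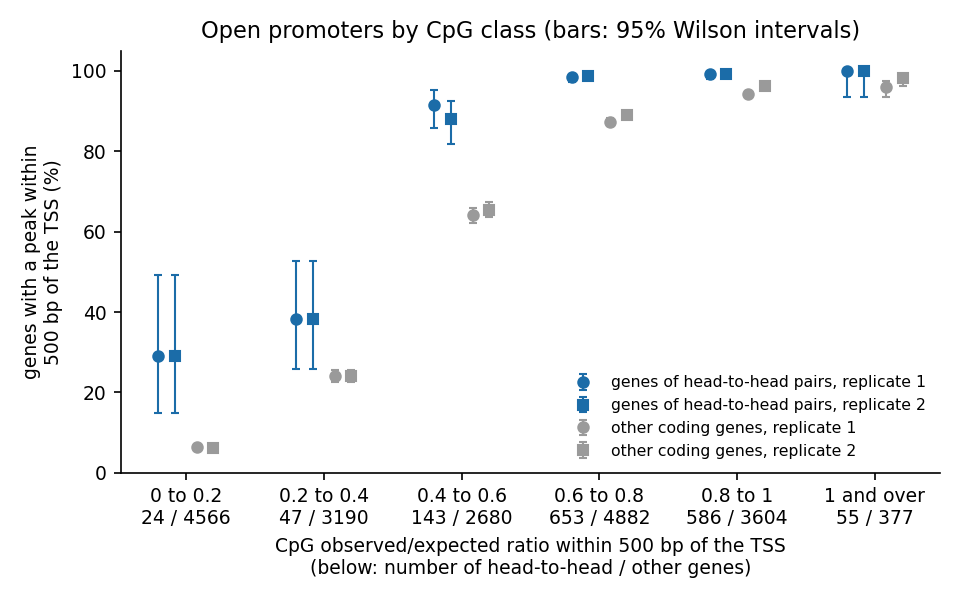
Share of genes with a peak within 500 bp of the TSS (y axis, %) by class of the CpG observed/expected ratio (x axis), for genes of head-to-head pairs (blue) and other protein-coding genes (grey), with replicate 1 as circles, replicate 2 as squares and 95% Wilson intervals as bars. The blue points lie above the grey ones in every class, and the gap narrows from the class at 0.4 to 0.6 (91.6% and 88.1% against 64.1% and 65.5%) to the classes with more CpG.

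The distance limits of the rule did not mark a step in openness, and what follows is a description without a test. Just inside the upper limit, all 12 pairs in the last 100 bp were open in both replicates, with median strengths of 12.5 and 6.30. All 12 pairs in the first 100 bp beyond the limit were open too, with median strengths of 6.28 and 3.53. At the lower end all but 1 of the 102 pairs with TSSs 1 to 50 bp apart were open (medians 7.55 and 4.84), as were all 27 pairs whose 5′ ends overlapped by less than 50 bp (medians 7.83 and 4.68). With overlaps of up to 1000 bp there were 323 pairs, of which 302 were open in both replicates (93.5%, medians 9.58 and 5.32). Their genes count among the other genes unless they are also in a pair of the rule.

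Most pairs had a peak in the upper part of the strength range. The strength of a peak is the authors' deposited signal. Within a replicate it came in whole steps of a fixed size, 0.00519 in replicate 1 and 0.00576 in replicate 2 (tolerance 0.05 steps). The strongest peak of a pair amounted to 2145 steps in replicate 1 and 1045.5 in replicate 2 at the median. The median strength over open pairs was 11.1 in replicate 1 (quartiles 6.41 and 17.5) and 6.02 in replicate 2 (quartiles 4.24 and 7.96), whereas all 94373 and 105000 peaks on these chromosomes had medians of 0.805 and 0.651. In whole tissue, fewer cells with an open promoter and fewer cuts per cell cannot be told apart. As strengths are scaled per sample, they were ranked within a replicate: the median pair lay at the 96.0th percentile of all peaks in replicate 1 and at the 96.2nd in replicate 2. Ranked by summed strength among the TSS windows of all open genes instead, the median pair lay at the 72.3rd percentile (mean of both replicates). The top 10% of peaks held the strongest peak of 588 of 734 open pairs in replicate 1 (80.1%) and of 624 of 732 in replicate 2 (85.2%). Only 17 and 18 pairs had their strongest peak in the lower 50%.

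Over equal windows, the median log2 strength of open pair genes exceeded that of other open genes by 1.08 in replicate 1 and 0.78 in replicate 2 (mean 0.93, SD 0.21, n = 2). Weighted to the same CpG classes, the difference was 0.81 and 0.54. Both animals thus gave the same direction, with a spread between them that was small against the difference. Class by class, the order was the reverse at a CpG ratio of 0.2 to 0.4. There 18 open pair genes per replicate had medians of 0.982 and 0.849, against 1.37 and 1.09 in other genes. In the remaining classes pair genes were higher in both replicates. Genes with a head-to-head long noncoding RNA gene, not weighted by CpG, had median strengths of 7.83 and 4.66, against 11.1 and 5.98 for pair genes and 5.11 and 3.44 for genes with neither kind of partner. Median peak widths did not differ, at 220 bp in replicate 1 and 240 bp in replicate 2 for pair genes and other genes alike.

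Sugct/Mplkip on chromosome 13 had the strongest peak of all pairs in both animals, 47.8 in replicate 1 and 18.1 in replicate 2. Sugct encodes a mitochondrial CoA-transferase of glutarate metabolism and Mplkip a nuclear protein whose loss causes a form of trichothiodystrophy in people. Next by mean rank came Dcaf6/Mpc2 (37.2 and 15.1), with a subunit of the mitochondrial pyruvate carrier, and Rita1/Ddx54 (35.8 and 14.2). Kcnab2/Nphp4, Dtl/Ints7, Aamp/Pnkd, BC005624/Usp20, Dnajb4/Fubp1, Srd5a1/Nsun2, Mphosph9/2810006K23Rik and Pdcd10/Serpini1 were also among the 12 best. Their strengths ran from 29.4 to 42.9 in replicate 1 and from 11.3 to 16.0 in replicate 2. Some pairs at the top combined genes of unlike roles, which was not counted over all pairs. Aamp/Pnkd (42.9 and 11.3) joins a protein of cell migration to one named after a movement disorder. Dnajb4/Fubp1 (30.01 and 16.0) joins a heat shock protein to a regulator of Myc. Each of these regions was unique in the genome at the level of 32-base words (median copy number 1).

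Across the 730 pairs open in both replicates, the log2 strengths of replicates 1 and 2 had a Pearson correlation of 0.873 and a Spearman correlation of 0.785. Over the 10422 other genes open in both, whose strengths span more of the scale, the values were 0.937 and 0.918. These are descriptions over regions that share 2 libraries. The largest gains in percentile in replicate 1 were seen in weak peaks. 4931428L18Rik/Pih1d3, whose second gene encodes an assembly factor of the dynein arms of cilia, had strengths of 0.982 and 0.248 (percentiles 57.3 and 11.0). Tmem205/Ccdc159 (0.701 and 0.282), Duox2/Duoxa2 (1.16 and 0.512), the genes of a hydrogen peroxide-forming oxidase and its maturation factor, and Tmem176b/Tmem176a (3.69 and 1.01) followed. In the other direction Zfp944/Zfp758 had strengths of 0.623 and 0.996 (percentiles 39.7 and 64.8), and Sgce/Peg10, an imprinted pair, 0.826 and 1.21 (percentiles 51.1 and 70.5). Kctd19/Lrrc36 (0.836 and 1.1) and Zwilch/Rpl4 (2.23 and 4.28) were the remaining 2. All 8 ranked 542 or lower among the pairs in both replicates.

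**Figure D2:**
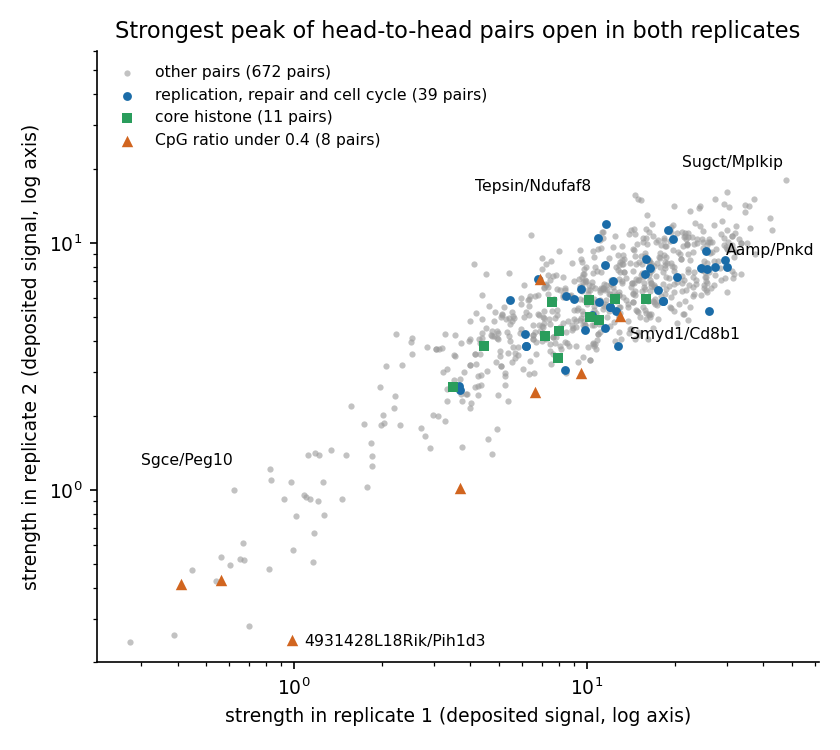
Strength of the strongest peak (deposited signal, log axes) in replicate 1 (x) and replicate 2 (y) for the 730 pairs open in both, with replication, repair and cell cycle pairs as blue circles, core histone pairs as green squares and pairs with a CpG ratio under 0.4 as orange triangles. Most pairs form 1 dense cloud at high strength, Sugct/Mplkip (47.8 and 18.1) is highest on both axes, and a thin tail of weak pairs reaches down to 4931428L18Rik/Pih1d3 (0.982 and 0.248).

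The distance between the TSSs had a median of 144 bp (quartiles 75 and 277 bp, range 1 to 996 bp), and 593 pairs (77.5%) lay within 300 bp. Openness changed little with distance: 268 of 278 pairs up to 100 bp apart were open in both replicates (96.4%), as were 80 of 88 pairs over 500 bp apart (90.9%), with overlapping intervals in each replicate. Strength was lowest in the closest pairs and highest at intermediate distance. Its median was 9.16 in replicate 1 and 5.34 in replicate 2 up to 100 bp, 14.9 and 6.68 over 300 and up to 500 bp, and 11.0 and 5.85 beyond that. The quartiles of neighbouring classes overlapped widely.

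How the peaks lay over a pair depended on that distance. One peak covered both TSSs in 244 of 268 open pairs up to 100 bp apart in replicate 1 (91.0%) and in 241 of 270 in replicate 2 (89.3%). Over 100 and up to 200 bp the shares were 54.2% and 68.5%, over 200 and up to 300 bp 25.2% and 40.8%, and over 300 and up to 500 bp 2.44% and 17.1%. No pair over 500 bp apart had such a peak (0 of 80 in each replicate). Over all distances the share was 51.9% in replicate 1 and 59.0% in replicate 2. The higher share in replicate 2 went with its wider peaks, whose medians per distance class were 220 to 300 bp against 200 to 240 bp in replicate 1, and the part of peak width in it was not tested. A single peak lay in the region of 356 pairs in replicate 1 and 395 in replicate 2, and 3 or more peaks in 117 and 83.

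**Figure D3:**
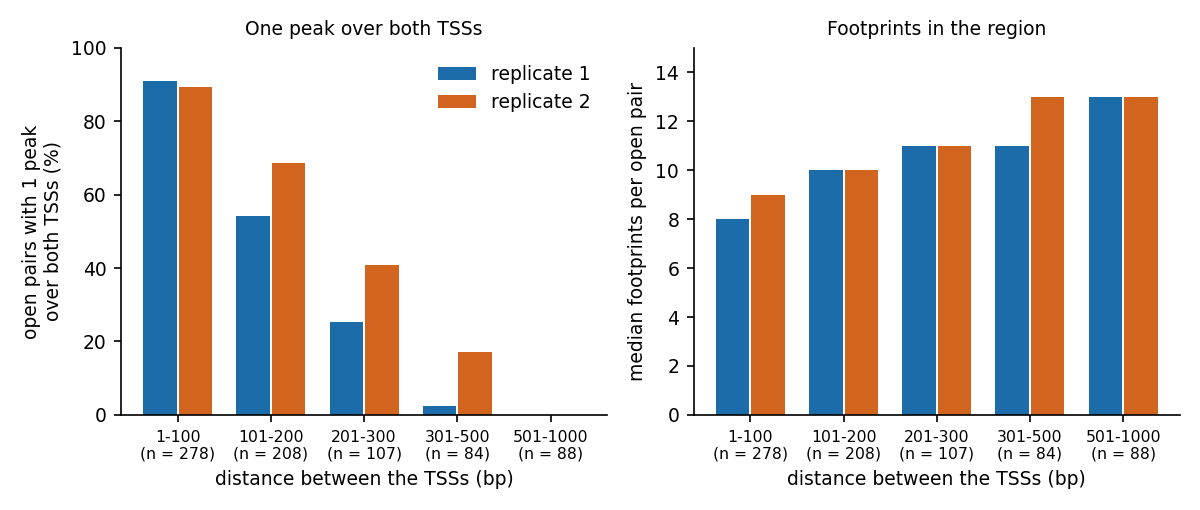
Left, share of open pairs in which 1 peak covers both TSSs (y axis, %), and right, median number of footprints per open pair, each by distance between the TSSs (x axis, bp, with the number of pairs) for replicate 1 (blue) and replicate 2 (orange). The share falls from 91.0% and 89.3% in the closest class to 0 in the widest, whereas footprints rise from 8 and 9 to 13 and 13.

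Neither strand stood out. Among 729 open pairs with TSSs more than 1 bp apart, the middle of the strongest peak was nearer to the plus-strand TSS in 366 pairs in replicate 1 (50.2%) and in 373 in replicate 2 (51.2%). It lay within 100 bp of the midpoint between the TSSs in 68.9% and 69.0% of pairs. Both replicates put it on the same side in 578 pairs (79.3%), so the side was a property of most pairs that recurred in both animals.

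Around the midpoint, 90.6% of pairs up to 100 bp apart had a peak in replicate 1 and 89.9% in replicate 2, and the share fell to 8.63% and 13.7% at 200 bp to the right. At 300 bp on either side it was 11.5% and 12.2% in replicate 1, and 10.1% and 10.4% in replicate 2. In pairs over 300 bp apart, a dip separated 2 shoulders: 36.6% and 41.3% at the midpoint against 48.3% and 50.6% at the highest point, which lay 170 bp and 140 bp to its left. The called peaks of the closest pairs thus formed 1 narrow maximum, and the summed profile of the wide pairs had 2 shoulders. The track of false discovery rates, which lists bases cut more than its background at a rate under 0.05, was far broader in the closest pairs, with 95.7% and 96.4% listed at the midpoint, 89.2% and 92.4% at 300 bp to the left and 84.5% and 91.4% at 300 bp to the right.

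**Figure D4:**
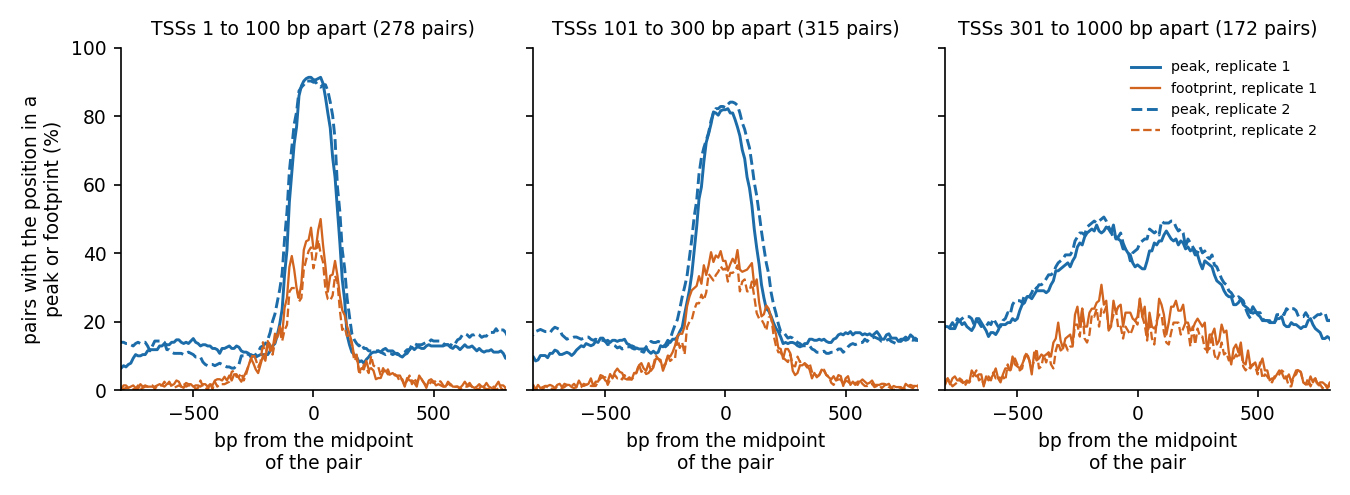
Share of head-to-head pairs (y axis, %) in which a position lies in a peak (blue) or a footprint (orange) by its distance from the midpoint between the TSSs (x axis, bp), for 3 classes of TSS distance, with replicate 1 as solid and replicate 2 as dashed lines. Pairs up to 100 bp apart show 1 narrow maximum near 90.6% and 89.9%, and pairs over 300 bp apart 2 shoulders with 36.6% and 41.3% at the midpoint between them.

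Seen from the TSS of a single gene, open head-to-head promoters differed on both sides from those of genes with neither kind of partner. Among the latter, genes with a coding neighbour outside the distance limits of the rule were not left out. At 200 bp upstream 34.9% and 44.1% of 1425 open pair genes had a peak in replicates 1 and 2, against 23.3% and 28.7% of 9842 open genes without a partner. At 200 bp downstream the order was the reverse, with 13.6% and 15.2% against 24.8% and 31.1%. The track of false discovery rates reached further: at 300 bp upstream 93.8% and 96.7% of pair genes were listed, against 58.6% and 76.4%. At 300 bp downstream the shares were 85.8% and 93.3% against 81.3% and 88.7%, a much smaller gap. Upstream of a pair gene lies the partner gene, so this side holds the downstream part of a second promoter in most pairs.

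**Figure D5:**
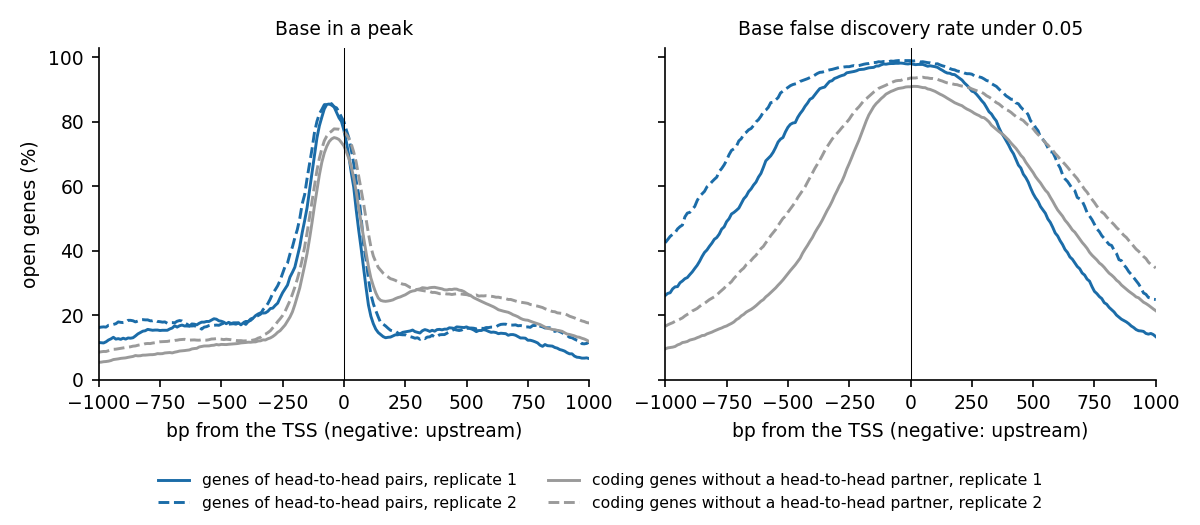
Share of open genes (y axis, %) by distance of a base from the TSS (x axis, bp, upstream negative). Left, the base lies in a peak, and right, it is listed with a false discovery rate under 0.05. Genes of head-to-head pairs are blue and genes with neither kind of partner by the rule used are grey. Replicate 1 is shown as solid and replicate 2 as dashed lines. On the upstream side the blue lines stay above the grey ones, as at 300 bp upstream on the right (93.8% and 96.7% against 58.6% and 76.4%), and on the downstream side of the left plot they fall below them.

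Among the 162 pairs over 300 bp apart and open in both replicates, 53 had separate peaks within 100 bp of each TSS in both animals. In 20 pairs 1 peak came within 100 bp of both TSSs, in replicate 1 mostly without covering them. In 32 a peak lay within 100 bp of 1 TSS only (16 on each strand). In 2 (Asphd1/Sez6l2 and P3h4/Fkbp10) the peaks lay away from both. The other 55 pairs changed class between replicates. Dcaf6/Mpc2, 572 bp apart, had separate peaks of 22.5 and 15.1 at Dcaf6 and of 37.2 and 12.6 at Mpc2 in replicates 1 and 2, so neither gene was higher in both. At Fbh1/Ankrd16, 909 bp apart, the peak at Fbh1, a DNA helicase gene, was stronger in both animals (24.3 and 14.0 against 4.06 and 2.75). Pdcd10/Serpini1 was also unequal, with 29.4 and 14.4 at Pdcd10, a gene of vascular integrity, and 9.16 and 4.32 at Serpini1, which encodes neuroserpin.

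The strongest peak of Sugct/Mplkip, the highest of all, lay between its TSSs, which are 423 bp apart (17694769 for Sugct and 17695192 for Mplkip). It ran from 17694901 to 17695140 in replicate 1 and to 17695100 in replicate 2. It thus came within 100 bp of the Mplkip TSS and just missed that limit at the outermost Sugct TSS. Srd5a1/Nsun2 (30.5 and 14.0) had its peak at Srd5a1, the gene of a steroid reductase, and Plag1/Chchd7 (29.4 and 9.78) at Chchd7, a mitochondrial protein gene. In Prune1/Mindy1, 868 bp apart, only a weak peak (1.28 and 1.38) touched the Mindy1 TSS and the strongest (26.8 and 10.0) lay over 100 bp from both outermost TSSs. The TSS used is the outermost one in the annotation, and a gene can start at others further in.

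Open pairs held a median of 10 footprints in each replicate (quartiles 8 and 13 in both), with a maximum of 30, and of 3 when only the interval between the TSSs was counted. In windows of equal length, open pair genes had a median of 9 and 10 footprints and open genes outside pairs 7 and 7. Only 4 open pairs in replicate 1 and 5 in replicate 2 had none. Of the footprints in pairs open in both, 67.2% of 7663 in replicate 1 and 67.7% of 8032 in replicate 2 overlapped one of the other animal, against 64.7% and 62.5% around other open TSSs. Dcaf6/Mpc2 (30 and 27) and B3galt6/Sdf4 (27 and 28) held most. B3galt6 encodes an enzyme of proteoglycan synthesis and Sdf4 a calcium-binding protein of the Golgi. Ddx5/Cep95 (26 and 25), Fiz1/Gm44973 (28 and 24), Hnrnpa2b1/Cbx3 (23 and 25) and Cbx5/Hnrnpa1 (22 and 30) followed. The last 2 pairs each join a heterochromatin protein 1 gene to a gene of an RNA-binding hnRNP protein, in paralogous arrangement. Their TSSs lay 466 and 616 bp apart, and longer regions hold more footprints.

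In pairs at least 100 bp apart, footprints lay at 15.5 per kb between the TSSs and 6.68 per kb in the flanks in replicate 1, a ratio of 2.31, and at 16.2 and 6.89 per kb in replicate 2, a ratio of 2.36. Peaks covered 60.3% and 63.9% of the bases between the TSSs and 21.5% and 23.6% of the flanks, and footprints are found mostly in strongly cut DNA. Counted inside peaks only, the density was 19.8 between the TSSs and 14.4 per kb in the flanks in replicate 1, and 20.9 and 15.2 in replicate 2. The excess between the TSSs thus held in both animals, at a smaller size. The number of footprints in a pair rose with its strength, with a Spearman correlation of 0.445 over the open pairs of replicate 1 and 0.297 in replicate 2.

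Short motifs were searched on both strands, as exact letters, within 150 bp of the midpoint of each pair, and in windows of the same length in the 19299 other genes, placed 72 bp upstream of their TSS as the midpoint is at a pair of median distance. CCAATCA or CCAATGA, strings bound by NF-Y, occurred in 161 pairs (21.05%), against 12.03% of other genes and 13.4% when these were weighted to the CpG classes of the pairs. CCGGAAGT, the ETS string, occurred in 99 pairs (12.9%), against 4.58% and 7.53% weighted. GCATGCGC, bound by NRF1, occurred in 53 pairs (6.93%), against 3.31% and 5.43%. AAGATGGCG, the YY1 string, was found in 41 pairs (5.36%), against 1.76% and 2.98%. For NF-Y, ETS and YY1 the weighted share of other genes lay below the interval of the pairs (18.3 to 24.1%, 10.7 to 15.5% and 3.98 to 7.19%), and for NRF1 it lay inside (5.34 to 8.95%). With windows of other genes centred on the TSS the unweighted shares were alike, 11.4% for NF-Y and 4.65% for ETS, and the shifted placement was chosen after the data were seen.

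GGGGCGGGG, the string of SP and KLF factors, occurred in 156 pairs (20.4%, interval 17.7 to 23.4), above the 15.3% of other genes but below their weighted share of 24.5%. The cyclic AMP response element TGACGTCA occurred in 38 pairs (4.97%, weighted 3.41%), CTCGCGAG of BANP in 26 (3.4%, weighted 1.96%), TCACGTGA of USF in 18 (2.35%, weighted 1.57%) and CTACAATTC of ZNF143 in 7 (0.915%, weighted 0.581%). AGGNGGCGC of CTCF occurred in 39 (5.10%, weighted 7.54%) and TGTGGTTT of the RUNX factors, which are active in thymocytes, in 4 (0.523%, weighted 0.848%). The weighted share also lay below the interval of the pairs for TGACGTCA (3.64 to 6.74%) and CTCGCGAG (2.33 to 4.93%). For AGGNGGCGC it lay above the interval (3.75 to 6.89%), and for the USF, ZNF143 and RUNX strings inside. At least 1 of these 11 motifs was present in 476 pairs (62.2%). GCATGCGC overlaps its own reverse complement in GCGCATGCGC, as seen at both sites of Polh/Xpo5, and each is then counted as 2 matches.

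Motifs differed widely in how often they overlapped a footprint. In pairs open in both replicates, 78 of 85 GCATGCGC matches (91.8%) overlapped a footprint in both animals, as did 34 of 37 TGACGTCA (91.9%), 178 of 214 GGGGCGGGG (83.2%) and all 7 CTACAATTC matches. The share was 62 of 110 for the ETS string (56.4%), 20 of 42 for YY1 (47.6%) and 69 of 198 for NF-Y (34.8%). For comparison, 32.2% of all 8-base words in these windows overlapped footprints of both animals. Around other open genes the shares were 81.5% for GCATGCGC, 88.9% for TGACGTCA, 68.0% for GGGGCGGGG, 69.3% for CTACAATTC and 32.5% for NF-Y. None of the 4 RUNX matches overlapped a footprint in either replicate.

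A TATAAA box 20 to 40 bp upstream of the TSS, on the strand of the gene, was found for 4 of the 1508 pair genes (0.265%, interval 0.103 to 0.680) and for 480 of the 19299 other genes (2.49%). Among open genes the shares were 4 of 1425 (0.281%, interval 0.109 to 0.720) and 78 of 10422 (0.748%, interval 0.6001 to 0.933). The genes were Duoxa2, Foxa3, the splicing factor gene Srsf2 and the histone gene Hist1h2bg. All 4 pairs were open in both replicates. Duox2/Duoxa2 was the weakest (1.16 and 0.512), followed by Hist1h2ae/Hist1h2bg (4.44 and 3.83). Srsf2/Mfsd11 had strengths of 13.2 and 8.50, and Foxa3/Sympk of 15.1 and 7.08. Foxa3 encodes a forkhead factor of the liver and Sympk a scaffold of messenger RNA 3′ end formation.

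Gene families differed in how many of their members sit in head-to-head pairs, beside 7.25% of all genes. Core histone genes had the largest share of the 12 families counted, 27 of 67 (40.3%), then mitochondrial ribosome genes with 21 of 78 (26.9%) and DNA replication, repair and cell cycle genes with 38 of 145 (26.2%). Chaperone genes followed with 4 of 18 (22.2%) and respiratory chain genes with 18 of 87 (20.7%). Zinc finger genes with a Zfp symbol (21 of 388, 5.41%), solute carrier genes (17 of 372, 4.57%) and T cell and lymphocyte genes (1 of 53, 1.89%) had fewer. Promoters of lymphocyte genes were nevertheless open in both replicates in 51 of 53 cases, beside 56.9% of all protein-coding genes. In this tissue they were thus nearly all open outside head-to-head pairs of the rule used.

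All 40 pairs with a replication, repair or cell cycle gene were open in both replicates, beside 95.4% of all pairs, with median strengths of 12.01 and 6.01, close to the 11.1 and 6.02 of all open pairs. Mbd4/Ift122 had strengths of 29.6 and 8.54, where Mbd4 encodes a glycosylase that removes mismatched thymine at CpG. Atm/Npat (25.4 and 9.29) joins the kinase gene of the DNA double-strand break response to a coactivator of histone genes. Palb2/Dctn5 (18.8 and 11.3) holds the partner of BRCA2, and Xrcc3/Zfyve21 (30.2 and 7.96) a gene of homologous recombination. The weakest was Pinlyp/Xrcc1 with 0.561 and 0.432, a CpG-poor region (ratio 0.292). Xrcc1 encodes a scaffold of single-strand break repair, and the outermost of its TSSs was only weakly open.

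Pairs with genes of energy metabolism and protein synthesis were open about as often as the 95.4% of all pairs, and the numbers are small. All 20 pairs with a mitochondrial ribosome gene had a peak in both replicates (medians 11.9 and 6.33), led by Mrps18b/Ppp1r10 (35.3 and 9.95), Klc4/Mrpl2 (19.4 and 11.6), Mrpl49/Fau (19.2 and 10.2) and Mrpl32/Psma2 (16.7 and 10.7). So had all 19 pairs with a respiratory chain gene (medians 11.1 and 6.33). In or outside pairs, 79 of 87 respiratory chain genes and 80 of 92 of the ribosomal protein family were open in both replicates, beside 56.9% of all protein-coding genes. In Tepsin/Ndufaf8, with an assembly factor of complex I, the peak had nearly equal values in both animals, 14.9 and 15.04, and ranked 5 among the pairs in replicate 2 but 258 in replicate 1. Ndufs1/Eef1b2 (17.4 and 8.26) and Rps28/Ndufa7 (12.3 and 9.64) have TSSs only 3 and 10 bp apart. All 10 pairs of the ribosomal protein family were open (medians 13.9 and 8.09), with Rpl9/Lias at 16.0 and 9.90 and Med22/Rpl7a at 15.5 and 10.1. Its strongest pair, Rps6kb1/Tubd1 (33.0 and 10.4), holds a kinase gene that entered by its symbol and encodes no ribosomal protein.

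The counts of open pairs in the next families stand beside 95.4% of all pairs open in both replicates, and most are near that share. All 5 proteasome pairs were open, among them Ftsj3/Psmc5 (14.4 and 11.4) and Psmb1/Tbp (17.9 and 6.11). The latter joins a core proteasome subunit to the TATA-binding protein. All 3 chaperone pairs were open. Hspd1/Hspe1 (21.5 and 7.11) encodes both parts of the mitochondrial folding chamber, and Cct5/Fam173b (13.9 and 10.8) and Tsacc/Cct3 (14.6 and 6.13) each hold a subunit of the cytosolic one. Among 18 zinc finger pairs, all open, Zfp654/Cggbp1 was strongest in replicate 1 (37.5 and 9.03). Open solute carrier pairs numbered 16 of 17, with Slc39a7/Rxrb (19.8 and 14.1) ahead by mean rank, and pairs with a Tmem symbol 25 of 26, with Tmem209/Ssmem1 (24.8 and 9.56) ahead. Of 2 collagen pairs only Polk/Col4a3bp (9.85 and 4.42) was open, and Col4a3bp is named for binding collagen but encodes a ceramide transporter. The true collagen pair Col4a4/Col4a3, of basement membranes, had a peak in replicate 1 only, at 0.229.

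Core histone pairs were open in both replicates in 11 of 14 cases (78.6%), beside 95.4% of all pairs, with median strengths of 8.04 and 4.85. Hist1h2bf/Hist1h2ad had 15.9 and 5.93, and Hist2h2ac/Hist2h2be on chromosome 3 had 12.5 and 5.93. Hist1h2ag/Hist1h2bj (10.2 and 5.87) and Hist1h2an/Hist1h2bp (11.0 and 4.85) followed. The 3 pairs without a peak were Hist1h2bq/Hist1h2ao, Hist1h2ap/Hist1h2br and Hist1h2ba/Hist1h2aa. The first 2 hold sequence that recurs: the median 32-base word of their regions occurs 6 times on chromosomes 1 to 19, and the treatment of reads with several matches is not known here. Hist1h2ah/Hist1h2bk also had a median of 6 copies and was open at 7.57 and 5.76. The role of repeated sequence in the missing peaks was not tested. Hist1h2ba/Hist1h2aa, with a median copy number of 1, encodes the histone variants of the testis. In all, 12 pairs had a median copy number over 1, and 9 of them were open in both replicates, beside 95.4% of all pairs.

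The only pair with a gene of the T cell list was Smyd1/Cd8b1 on chromosome 6. Cd8b1 encodes the beta chain of the CD8 coreceptor of T cells, and Smyd1 a methyltransferase of striated muscle. The peak within 100 bp of the Cd8b1 TSS had strengths of 12.9 and 5.06 in replicates 1 and 2, and the separate one at Smyd1, 555 bp away, 1.41 and 1.20. Both animals thus had the far stronger peak on the T cell side. The region was poor in CpG, with a ratio of 0.230. Only 8 of the 28 pairs with a ratio under 0.4 were open in both replicates (28.6%), against 647 of 655 with a ratio of at least 0.6 (98.8%). Besides Smyd1/Cd8b1 the 8 included H2-T22/Gm6034 (9.52 and 2.98), with a nonclassical histocompatibility gene, and Pecam1/Milr1 (6.64 and 2.50), with genes of endothelial and mast cells. Haghl/Ccdc78 (6.91 and 7.12), Tmem176b/Tmem176a, 4931428L18Rik/Pih1d3, Pinlyp/Xrcc1 and Ifit1bl2/Ifit1 (0.410 and 0.415) were the others. Ifit1 is an interferon-induced gene.

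The 29 pairs without a peak in either replicate held 57 genes. Those described here by role were chosen after their values were seen, and the roles were not counted in open pairs. Plcz1, in Plcz1/Capza3, encodes the sperm factor that activates the egg, and Tssk1, in Dgcr2/Tssk1, a kinase of the testis. Kirrel2/Nphs1 holds the gene of nephrin, a protein of the kidney filter, and Best1/Rab3il1 that of bestrophin, a channel of the retinal pigment epithelium. Cd160/Pdzk1 joins the gene of a lymphocyte receptor to that of a scaffold of kidney epithelium, and Ccr10/Cntnap1 a chemokine receptor gene of lymphocytes to one of the axon. Best1/Rab3il1 was the closest pair among them, with TSSs 36 bp apart, followed by Slc30a3/Dnajc5g (70 bp), Il11/Tmem190 (78 bp), Ccnt1/4930415O20Rik (81 bp), Patl2/Terb2 (83 bp), Gm10447/Shroom1 (95 bp), Fam217a/4933417A18Rik (99 bp) and Plcz1/Capza3 (100 bp). Their median CpG ratio was 0.312 against 0.768 in pairs open in both, and 19 of the 29 had a ratio under 0.4. A close head-to-head arrangement thus occurred without any peak, mostly at low CpG, and 5 of the 29 had a ratio of at least 0.6.

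None of the 29 held a footprint in either replicate. Only Nt5c3b/Klhl10 had bases listed in the tracks of false discovery rates, in both replicates, with a peak 88 bp from its region in replicate 1 and 128 bp in replicate 2. The nearest peak lay at a median of 4650 bp in replicate 1 and 4471 bp in replicate 2. In 8 pairs 1 gene had an open promoter at another of its annotated TSSs in both replicates. These were Ngef, Cd160, Slc30a3, Ostm1, Nt5c3b, Dgcr2, Rab3il1 and Ccnt1, the cyclin of a transcription elongation kinase, so the region without a peak is there only the outermost start of a gene that is open elsewhere. Provisional gene models made up 6 of the 29 pairs (20.7%) and 82 of the 730 open in both (11.2%). The 6 pairs with a peak in only 1 replicate were all weak. They were Col4a4/Col4a3 (0.229), Nmur1/Tex44 (0.296), Peg3/Usp29 (0.265), an imprinted pair, and Bhmt2/Dmgdh (0.255), with genes of betaine metabolism, in replicate 1, and Ppp1r3d/Fam217b (0.225) and Gm9955/Fhod3 (0.230) in replicate 2. Each lay below the 10% mark of its replicate's strengths.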

How the data were processed

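Per the labels, DNase-seq was done on thymus of 2 mice, and per the listing deposited with each sample, the authors made peaks, footprints and a track of false discovery rates from the alignments of that sample alone (mm10), without pooling. The aligner, the callers, their settings and the handling of CAST alleles were not given in the sources used here. Peak strengths are a deposited signal scaled per sample, with an unknown read depth. The p-value column of the track is the authors' false discovery rate (q-value) and lists only bases under 0.05; the same column of the footprints is constant. The longer of 2 deposited peak lists was used, and the shorter as an alternative. Peaks of a list can overlap each other, and covered bases were counted once.

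Pairs were found from the GENCODE M21 basic annotation, and sequence was read from GRCm38.p6, whose chromosomes are those of mm10. Coordinates are 1-based. Overlaps need 1 bp. Median log2 strengths were compared within a replicate, so that a factor per sample cancels. CpG ratios and 32-base word counts are from the reference. Wilson intervals (95%) cover counting error only, and pairs and genes are not replicates. Python 3.11.15, numpy 2.4.6, scipy 1.17.1 and bedtools 2.31.1 were used. Pair finding, overlaps and intervals were tested on simulated data with known answers.

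Pairs named are the 12 with the best mean rank, the 4 best and up to 4 without peaks per gene family, the 8 closest without peaks, the 4 with the largest percentile difference in each direction, the 6 with most footprints, 4 wide pairs with separate peaks and 4 with a peak at 1 TSS. Of these, 2 pairs are not reported here. Other pairs in small counts were named after their values were seen. The 8 sequences followed a similar rule. Members, gene families and motifs were chosen with earlier results of these data known. The families were drawn by symbol.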

Additional observations from a re-analysis of the deposited data

How the results depend on the processing

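With 1 group of 2 animals nothing was tested, and after the ranges over single replicates the alternatives listed are mainly those that changed a value by more than the SD of both. With each replicate alone, 95.7% to 95.9% of pairs had a peak, 95.03% to 95.2% of pair genes were open, the difference from other genes was 38.1 to 39.2 percentage points and 0.78 to 1.08 in log2 strength, 51.9% to 59.0% of open pairs had 1 peak over both TSSs, the median percentile was 96.0 to 96.2, the median number of footprints 10 in both, and the footprint ratio 2.31 to 2.36. Against 95.4% of pairs open in both, the share was 96.0% with TSSs up to 500 bp apart, 94.6% up to 2000 bp, 95.9% without provisional gene models, 94.0% with the shorter peak list, 90.3% without flanks and 95.2% in windows of fixed length. Against 94.5% of pair genes, the first 4 of these settings gave 96.0%, 91.3%, 95.02% and 93.0%, and any annotated TSS 95.2%. Against a difference of 40.5 percentage points, the same 4 gave 41.7, 37.6, 37.8 and 43.0, any annotated TSS 38.6, and CpG weighting 11.2, the only alternative that changed this value by over 1.5 times. CpG weighting gave 0.68 in place of 0.93 in log2 strength. One peak over both TSSs was found in 62.3% up to 500 bp and 48.1% up to 2000 bp, and the footprint ratio was 2.83 and 1.505 there and 2.99 with footprints of both animals. The median percentile was 94.3 with the shorter list and 72.3 for summed strengths ranked among TSS windows. The median number of footprints was 3 without flanks and 7 with those of both animals. Counting overlapping regions once, chosen after seeing the data, gave 95.4% open pairs. No paired analysis was possible because there is only 1 group. The read depth is unknown, so weak peaks cannot be given a counting error.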
